A study of Mus musculus with 15 samples.

Results

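Lymphatic endothelial cells line the vessels that drain fluid and immune cells from the lung, and 7 genes commonly used to mark them were followed through bleomycin injury: Prox1, Flt4, Lyve1, Ccl21a, Mmrn1, Reln and Pard6g. They were chosen by symbol in the deposited count table, which held 33340 genes. All 7 were present, and all 7 passed the filter on low counts that kept 17457 genes for testing. The data were RNA-seq of whole lungs of C57BL/6 mice, described in the methods of the study as males of 10 to 12 weeks. The day 0 group received no bleomycin (4 libraries). The other groups were lungs taken 7 days (4 libraries), 14 days (4 libraries) and 21 days (3 libraries) after a dose of 5 U/kg bleomycin into the trachea, which damages DNA and leads to scarring. Day 0 replicate 4 was a control by its title, while its treatment label named bleomycin, and it was kept by its title. The series text speaks of 3 replicates per day, while the titles give 4 at days 0, 7 and 14, and the libraries were counted by their titles. The labels give no genotype beyond the strain. There were no vehicle-treated lungs at the later days, so time after the instillation and the drug cannot be told apart.

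Lymphatic endothelium arises from veins when Prox1, a homeobox transcription factor, is switched on, and it needs Prox1 to keep its identity afterwards. Flt4 is the receptor for the growth factors VEGF-C and VEGF-D, which drive lymphatic vessels to sprout. Lyve1 binds hyaluronan on the surface of initial lymphatics and is also made by some tissue macrophages. Ccl21a is a chemokine that guides dendritic cells and T cells carrying the receptor Ccr7. Mmrn1 (multimerin) and Reln (reelin) are large secreted glycoproteins, the former also stored in platelets. Pard6g is an adaptor of the PAR polarity complex. In whole lung, a change in the number of cells of a type and a change in RNA per cell cannot be told apart.

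At day 21, 5 of the 7 genes were higher than at day 0, from 2.07-fold for Flt4 to 4.69-fold for Reln, and Lyve1 and Pard6g were not. At day 14 only Prox1, Reln and Ccl21a passed the test, and at day 7 none did. The values below are CPM, the counts scaled to a common library size after correction for library composition, with the SD over libraries. A gene was called changed at an adjusted p under 0.05 (edgeR's quasi-likelihood test, Benjamini-Hochberg over all 17457 genes) and a fold change over 1.5. By this rule 22.5% of all tested genes changed at day 21, 12.4% upward. At day 14 the shares were 23.1% and 12%, and at day 7 they were 16.1% and 8.78%.

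The start regions of the genes that rose at day 21 are shown because they differed in base composition. RefSeq gave 6 windows of 250 bases before a transcription start (build GRCm38.p6) for 5 of the 7 genes, of which the one farther upstream is shown for Prox1. The windows of Prox1 and Reln were rich in G and C (64.8% and 80.0%) and held 20 and 37 CpG dinucleotides. The other Prox1 window had 56.0% G and C and 11 CpG. The windows of Ccl21a and Mmrn1 had 52.8% and 42.4% G and C, with 4 and 3 CpG. That of Flt4, which is not printed, had 68.4% and 16 CpG. Each printed window is on the strand of the gene, 5′ to 3′, ending at the base before the start. Capitals mark matches on either strand to AGGAAG, the core of an ETS site, or to AACAAT, a SOX site. The letters AGATAA (the core of the GATA site) and AGGTCA (the core of a nuclear receptor site) were also searched on both strands, with no match in the windows printed. Over 32851 such windows of the genome, 29.5% held the ETS letters, 9.42% the SOX letters, 9.99% the GATA letters and 14.0% the nuclear receptor letters.
Prox1, chr1:190170828-190171077, minus strand: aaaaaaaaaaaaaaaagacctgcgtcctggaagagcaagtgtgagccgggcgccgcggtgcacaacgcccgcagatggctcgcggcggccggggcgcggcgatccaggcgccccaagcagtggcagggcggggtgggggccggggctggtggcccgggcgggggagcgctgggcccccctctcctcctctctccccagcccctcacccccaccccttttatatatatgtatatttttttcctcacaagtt
Reln, chr5:22344706-22344955, minus strand: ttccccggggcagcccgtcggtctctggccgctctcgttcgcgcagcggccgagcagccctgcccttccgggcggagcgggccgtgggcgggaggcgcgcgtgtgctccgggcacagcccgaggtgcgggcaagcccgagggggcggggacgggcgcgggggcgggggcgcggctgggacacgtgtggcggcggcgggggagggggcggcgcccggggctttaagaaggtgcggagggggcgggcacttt
Ccl21a, chr4:42773992-42774241, minus strand: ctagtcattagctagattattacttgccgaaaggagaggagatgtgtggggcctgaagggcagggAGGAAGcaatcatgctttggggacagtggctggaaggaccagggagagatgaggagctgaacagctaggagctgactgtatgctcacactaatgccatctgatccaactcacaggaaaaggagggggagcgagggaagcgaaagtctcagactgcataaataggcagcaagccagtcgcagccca
Mmrn1, chr6:60944067-60944316, plus strand: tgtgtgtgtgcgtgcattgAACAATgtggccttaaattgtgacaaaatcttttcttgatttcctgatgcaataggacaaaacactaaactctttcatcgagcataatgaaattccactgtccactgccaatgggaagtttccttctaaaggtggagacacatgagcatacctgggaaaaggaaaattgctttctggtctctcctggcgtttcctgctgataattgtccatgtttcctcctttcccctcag
The Ccl21a window held the ETS letters and the Mmrn1 window the SOX letters, each 1 time. The start used for Mmrn1, at 60944317, lies inside the gene as GENCODE M21 draws it (60924976 to 60989378, plus strand). The last bases of the Ccl21a window touch the exon of Ccl21a in GENCODE. The Flt4 window also overlaps an exon of its own gene there, and it is not shown.

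**Figure D1:**
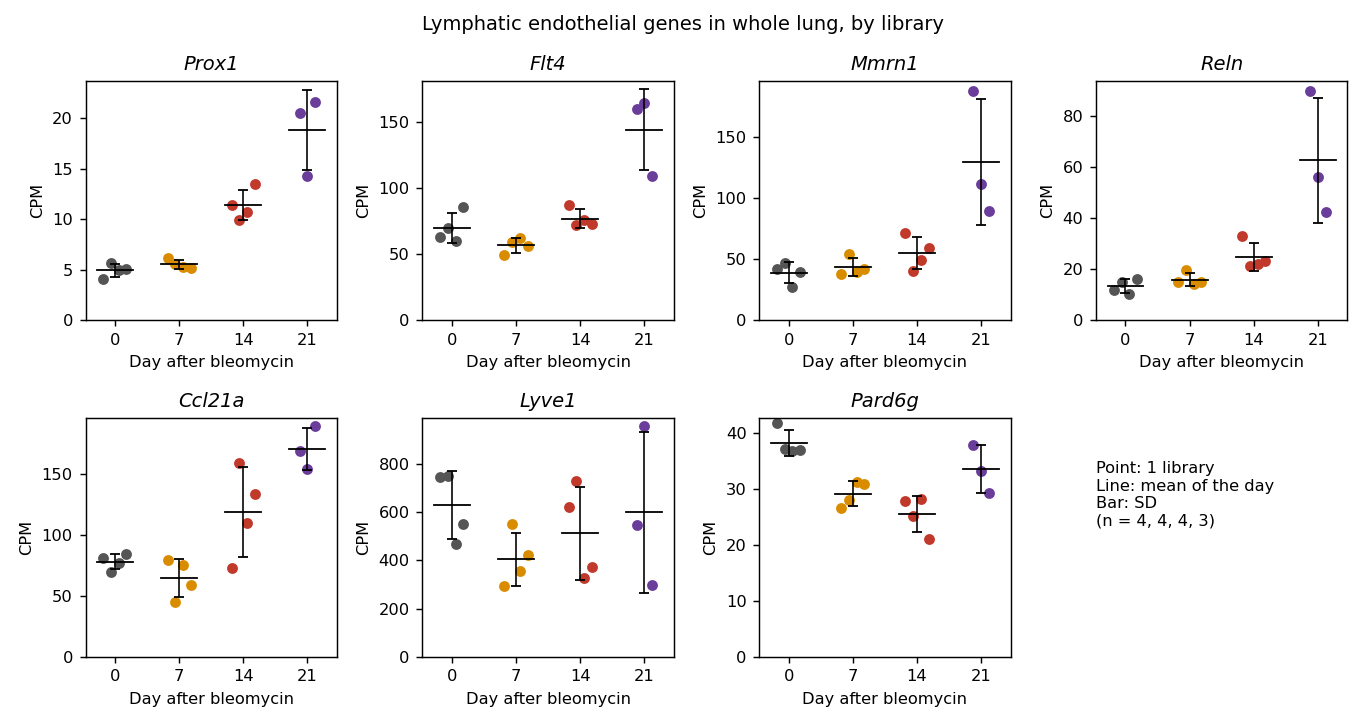
CPM of the 7 genes in each library (points) on days 0, 7, 14 and 21 after bleomycin, with the mean (line) and SD (bar) of each day. The 3 libraries of day 21 lie above all 4 of day 0 for Prox1, Flt4, Mmrn1, Reln and Ccl21a, while those of Lyve1 spread from 296.3 to 955.9 CPM across the range of day 0.

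Prox1 (ENSMUSG00000010175, chromosome 1, 190118035 to 190170714, minus strand) was lowest before bleomycin and at day 7. The 4 day 0 libraries held 4.08, 5.68, 4.95 and 5.02 CPM. The day 7 libraries held 6.17, 5.53, 5.22 and 5.11 CPM, overlapping day 0. At day 14 the libraries held 11.4, 9.95, 10.7 and 13.5 CPM, and at day 21 they held 20.5, 14.2 and 21.6 CPM. Each library of day 14 was above each of days 0 and 7, and each of day 21 above each of day 14. The log2 fold change against day 0 was 0.16 ± 0.17 (SE) at day 7, with an edgeR adjusted p of 0.523. It was 1.20 ± 0.17 at day 14 (adjusted p 8.18e-05) and 1.92 ± 0.18 at day 21 (4.83e-06), a fold of 2.30 and 3.80. These rested on 63 to 367 counts per library, the smallest counts among the 7 genes. Antisense transcripts that overlap Prox1 held 5 and 2 counts in all 15 libraries, against 2421 for Prox1.

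Flt4, the receptor (ENSMUSG00000020357, chromosome 11, 49609263 to 49652739, plus strand), passed the test against day 0 at day 21 and at no earlier day. Its level was 63.4, 70.1, 59.9 and 85.8 CPM in the day 0 libraries and 49.2, 59.2, 62.6 and 56.0 CPM in those of day 7. At day 14 it was 87.1, 72.0, 75.6 and 73.2 CPM, and at day 21 it was 159.8, 164.4 and 109.3 CPM. Days 0, 7 and 14 held overlapping values at least in part, since all day 14 libraries were above day 7 but 3 of 4 were within the range of day 0. Against day 0 its log2 fold change was -0.30 ± 0.14 at day 7 (adjusted p 0.134), 0.14 ± 0.14 at day 14 (0.471) and 1.05 ± 0.15 at day 21 (0.000136).

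Reln (ENSMUSG00000042453, chromosome 5, 21884454 to 22344702, minus strand) had the largest fold of the 7. The day 0 libraries held 11.8, 15, 10.4 and 16.2 CPM and the day 7 libraries 14.8, 19.8, 14.1 and 14.9 CPM. At day 14 the level was 33.0 CPM in replicate 1 and 21.2, 21.9 and 23.1 CPM in the others. At day 21 it was 89.9, 56.1 and 42.3 CPM, so that each later day from 14 on lay fully above the day before it. Against day 0 the log2 change was 0.25 ± 0.22 at day 7 (edgeR adjusted p 0.441), 0.89 ± 0.22 at day 14 (0.00669) and 2.23 ± 0.24 at day 21 (1.28e-05). The day 14 call was lost within libraries of over 3.5% mitochondrial counts, where the log2 fold change was 0.71 and the adjusted p 0.0555. That subset was smaller, with day 0 replicates 3 and 4 and day 14 replicates 2, 3 and 4.

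Mmrn1 (ENSMUSG00000054641, chromosome 6, 60924976 to 60989378, plus strand) followed at day 21. It was at 42.3, 46.9, 27.4 and 39.2 CPM at day 0, and at 37.6, 53.9, 39.4 and 41.7 CPM at day 7. The day 14 libraries held 71.1, 40.3, 49.5 and 59.0 CPM, of which 3 were above day 0, and the day 21 libraries held 187.9, 111.6 and 89.6 CPM, all above every earlier library. Its log2 fold change was 0.15 ± 0.23 at day 7 (adjusted p 0.673), 0.50 ± 0.23 at day 14 (0.108) and 1.74 ± 0.25 at day 21 (0.00012). Day 21 replicate 1, the highest of the 15 libraries in both Mmrn1 and Reln, also held the most cardiac muscle transcripts, with a summed 757.9 CPM over 7 markers against 18.8 and 24.9 CPM in the other day 21 libraries. Without it the day 21 log2 fold changes were 1.33 for Mmrn1 (adjusted p 0.000797) and 1.84 for Reln (5.9e-05), both still called. Those of Prox1, Flt4 and Ccl21a were 1.82, 0.94 and 1.10, also called.

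Ccl21a, the chemokine (ENSMUSG00000094686, chromosome 4, 42772860 to 42773993, minus strand), had 81.0, 70.0, 77.5 and 84.2 CPM at day 0 and 79.8, 45.4, 75.2 and 58.6 CPM at day 7. At day 14 the libraries ranged widely, from 73.0 CPM in replicate 1 to 159.5 CPM in replicate 2, with 109.7 and 133.4 CPM in the others. At day 21 they held 168.9, 154.2 and 189.2 CPM, all above day 0. The log2 fold change was -0.27 ± 0.20 at day 7 (edgeR adjusted p 0.349), 0.60 ± 0.20 at day 14 (0.0326) and 1.13 ± 0.22 at day 21 (0.00131). The day 14 fold of 1.52 was just past the threshold, and the call was lost in 13 of 19 alternative fits.

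The mouse genome holds close copies of Ccl21a, and the authors left out reads that aligned to several places. Over the 402 bases of Gm10591, a copy at chromosome 4, 42612195 to 42612860, Ccl21a differed at 2 positions, T84A and C194T, counted from the first base of that stretch, with the base of Ccl21a given before the position. The same substitutions set Ccl21a apart from Ccl21b, Gm13304 and Gm21541. Bases 74 to 203 of both are shown, with the differing bases in capitals.
Ccl21a: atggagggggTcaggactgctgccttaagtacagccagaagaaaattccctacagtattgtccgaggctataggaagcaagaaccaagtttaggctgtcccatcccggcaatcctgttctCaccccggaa
Gm10591: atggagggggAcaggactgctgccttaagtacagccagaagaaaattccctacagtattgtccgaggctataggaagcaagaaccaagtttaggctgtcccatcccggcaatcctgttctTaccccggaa
Gm10591 held 543 counts over the 15 libraries, Gm13304 held 15 and Gm21541 held 1, against 26234 for Ccl21a. The whole transcripts of Ccl21a and Gm21541, of 870 bases each, differed at 6. The counts of Ccl21a and of its copies are therefore uncertain. No counted gene matched the symbol Ccl21b or Ccl21c in GENCODE M21, so their counts could not be analysed.

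Lyve1 (ENSMUSG00000030787, chromosome 7, 110850607 to 110863239, minus strand) did not follow the others. The day 0 libraries held 745.8, 747.3, 468.6 and 550.3 CPM, and those of day 7 held 294.5, 548.9, 354.0 and 419.9 CPM. At day 14 it was at 619.3, 727.6, 328.4 and 370.5 CPM, and at day 21 at 544.7, 955.9 and 296.3 CPM. The range of day 21 took in that of day 0 on both sides. The log2 fold change was -0.64 ± 0.33 at day 7 (adjusted p 0.165), -0.30 ± 0.33 at day 14 (0.514) and -0.07 ± 0.35 at day 21 (0.904). At day 7 the estimate was below 0 in all 19 alternative fits and was called in 3, with a log2 fold change of -0.90 (adjusted p 0.0188) among libraries of under 2.5% mitochondrial counts. Those libraries were day 0 replicates 1 and 2 and all of day 7.

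Pard6g (ENSMUSG00000056214, chromosome 18, 80046890 to 80119639, plus strand) moved the other way. It was at 41.6, 37.1, 36.8 and 36.9 CPM at day 0. At day 7 the libraries held 26.5, 28.02, 31.2 and 30.7 CPM and at day 14 they held 27.7, 25.1, 28.1 and 21.1 CPM, all below every day 0 library. At day 21 they held 37.9, 33.2 and 29.3 CPM and overlapped day 0. In log2 terms the difference from day 0 was -0.39 ± 0.11 at day 7 (edgeR adjusted p 0.0205), -0.58 ± 0.11 at day 14 (0.00118) and -0.19 ± 0.12 at day 21 (0.261). The day 7 and day 14 differences passed the adjusted p but not the fold threshold, at 1.31-fold and 1.49-fold lower. By adjusted p alone 25.0% of tested genes passed at day 7 and 33.1% at day 14. The day 14 fall passed both thresholds in 12 of 19 alternative fits.

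**Figure D2:**
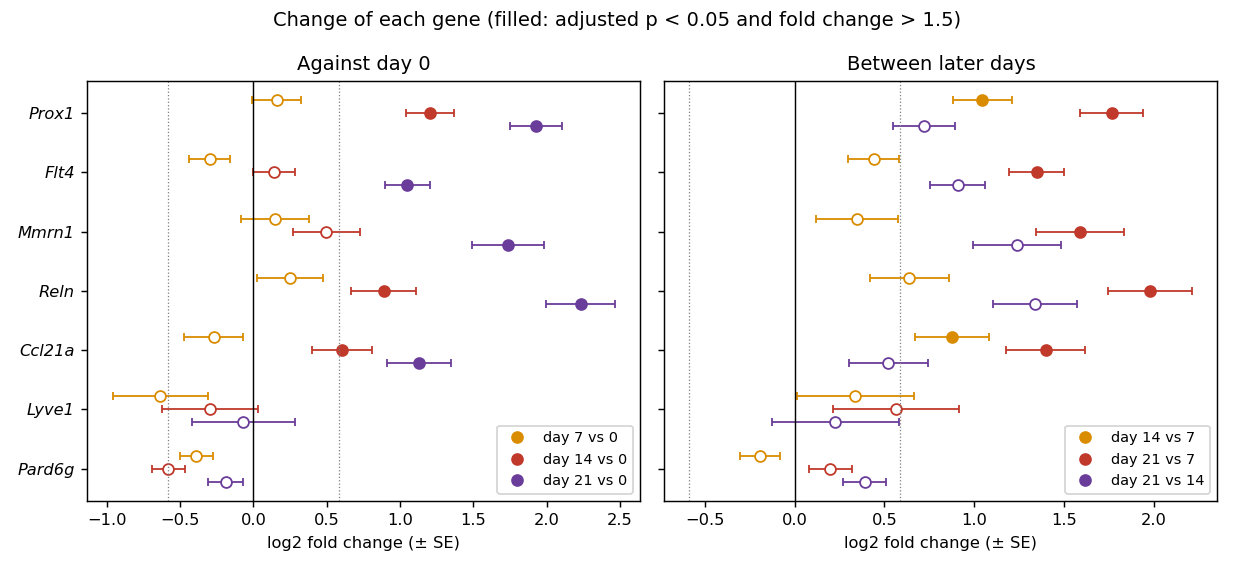
Log2 fold change of each gene with its SE, against day 0 (left) and between later days (right), where filled points passed both thresholds and dotted lines mark a fold change of 1.5. Against day 0, filled points lie between 0.60 and 2.23, and Lyve1 and Pard6g have no filled point.

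Counting libraries gave a similar picture. Every library of day 21 lay above every library of day 0 for 5 of the 7 genes, where 19.4% of all tested genes did so. At day 14 this held for Prox1 and Reln (16.8% of all genes), and at day 7 for none (17.6%). Pard6g lay fully below day 0 at day 7 (13.2% of all genes) and at day 14 (14.4%). Against day 7, every day 14 library was higher for Prox1, Flt4 and Reln (7.9% of all genes), and every day 21 library for the 5 genes named (14.6%). The median log2 fold change of the 7 genes was -0.27 on day 7, 0.50 on day 14 and 1.13 at day 21, while the medians of all tested genes were 0.01, 0.02 and 0.02.

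Between later days, the question was when the rise took place. From day 7 to day 14, 2 of the 7 genes were higher, where 6.0% of all genes changed, 2.77% upward. Prox1 rose by a log2 fold change of 1.05 ± 0.17 (edgeR adjusted p 0.00486) and Ccl21a by 0.88 ± 0.20 (0.0222). The Ccl21a call was lost in 6 of 18 alternative fits. These were glmTreat, the 2 groups alone, the omission of day 7 replicate 2, day 7 replicate 4 or day 14 replicate 2, and a fit that added each library's mitochondrial share (0.59, edgeR adjusted p 0.262). Prox1 lost its call under glmTreat, which tests against the fold threshold itself. From day 7 to day 21, Prox1, Flt4, Ccl21a, Mmrn1 and Reln were higher, with log2 fold changes of 1.77, 1.35, 1.40, 1.59 and 1.98, where 9.54% of all genes changed, 5.2% upward.

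From day 14 to day 21 none of the 7 genes passed, and 0.0% of the 17457 tested genes did (0 genes, with 1714 at an unadjusted p under 0.05). Of the 7 genes, 6 had an unadjusted p under 0.05, and the libraries of day 21 lay fully above those of day 14 for Prox1, Flt4, Mmrn1, Reln and Pard6g, where 3.05% of all genes did. The log2 fold changes were 0.72 ± 0.17 for Prox1 (edgeR adjusted p 0.266), 0.91 ± 0.15 for Flt4 (0.114), 1.24 ± 0.25 for Mmrn1 (0.189) and 1.34 ± 0.23 for Reln (0.114). DESeq2 called these 4 genes, and 101 of 18195 genes in all, or 0.555%. In edgeR, Flt4, Mmrn1 and Reln were called without day 14 replicate 1, and also without day 21 replicate 3.

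The genes differed in level as well as in change. Per kilobase of exon, the mean over the 15 libraries was 182.1 CPM for Lyve1 and 119.5 CPM for Ccl21a. Lyve1 was above Ccl21a in every library of days 0 and 7, with means of 215.1 ± 48.3 and 89.9 ± 7.05 (SD) CPM per kilobase at day 0. The genes overlapped at day 14 and at day 21, when the means were 205.2 ± 114.1 and 196.3 ± 20.2. Mmrn1 was at 10.7, Flt4 at 10.1 and Pard6g at 9.98 CPM per kilobase, but their order differed between days. At day 0 the mean was 12.1 ± 0.74 (SD) CPM per kilobase for Pard6g, 8.48 ± 1.40 for Flt4 and 6.64 ± 1.41 for Mmrn1, and each Pard6g value was above those of the other genes. At day 21 it was 10.6 ± 1.36 for Pard6g, 17.6 ± 3.71 for Flt4 and 22.1 ± 8.80 for Mmrn1, and each Pard6g value was below those of the other genes, which overlapped each other. Prox1 and Reln were lowest, both at 1.14 CPM per kilobase.

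Ratios within a library set the lymphatic genes against each other, against Kdr, a VEGF receptor of blood and lymphatic vessels, and against Pecam1, a junction protein of all endothelium. Both parts of a ratio can move it. At day 14 the log2 fold change of Kdr was -0.87 and that of Pecam1 -0.60, both called, while Flt4 was at 0.14 with no call. At day 21 Kdr was at -0.96, called, and Pecam1 at -0.53, not past the fold threshold. The log2 ratio of Prox1 over Pecam1 was -7.33 ± 0.26 (SD) at day 0 and -6.82 ± 0.26, -5.53 ± 0.37 and -4.92 ± 0.44 on days 7, 14 and 21. All later libraries lay above all day 0 libraries. The log2 ratio of Flt4 over Kdr was -2.46 ± 0.23, -2.26 ± 0.26, -1.36 ± 0.65 and -0.44 ± 0.66 on the same days, so that in day 21 replicate 1, at 0.14, Flt4 exceeded Kdr in CPM. The log2 ratio of Lyve1 over Prox1 went from 6.94 ± 0.41 at day 0 to 6.13 ± 0.45, 5.40 ± 0.67 and 4.85 ± 1.15. The exact two-sided permutation test gave p = 0.0286 for these 3 ratios at day 14 and p = 0.0571 at day 21, the smallest it allows with 4 against 4 and 3 against 4 libraries. At day 7 the exact p was 0.0286 for Prox1 over Pecam1, 0.0571 for Lyve1 over Prox1 and 0.257 for Flt4 over Kdr. After adjustment over the 9 tests, 8 had p = 0.0642 by the exact test and the last stayed at 0.257, so none passed.

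**Figure D3:**
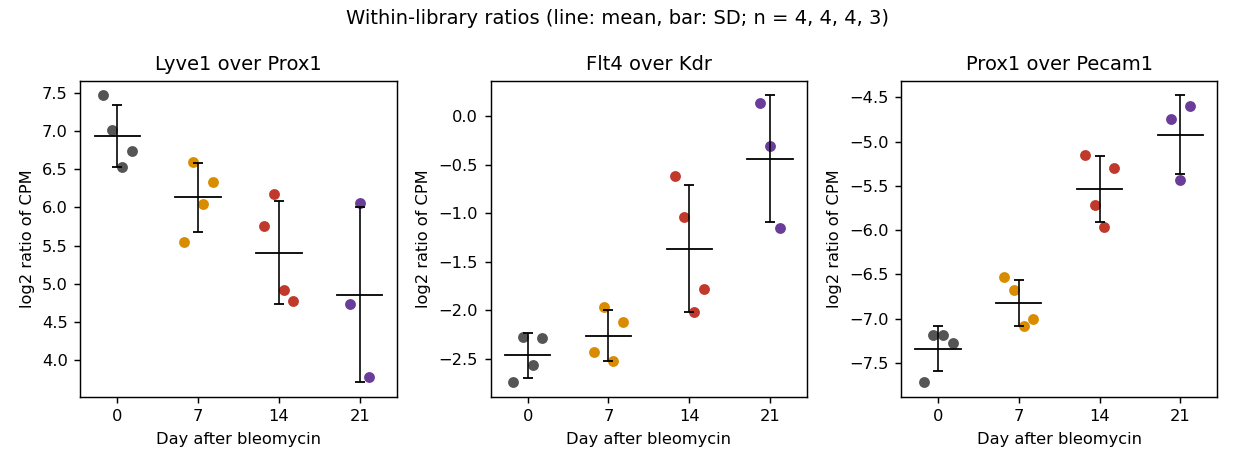
Log2 ratio of CPM within each library (points) for 3 pairs of genes by day, with the mean (line) and SD (bar). The means move from 6.94 to 4.85 for Lyve1 over Prox1, from -2.46 to -0.44 for Flt4 over Kdr and from -7.33 to -4.92 for Prox1 over Pecam1.

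Other genes of lymphatic growth and identity were taken from 6 lists with 65 genes, of which 63 were in the table and 61 were tested. At day 7, 9 were higher and 6 lower. At day 14, 17 were higher and 11 lower, and on day 21, 20 were higher and 5 lower. The shares changed were 24.6%, 45.9% and 41.0%, beside 16.1%, 23.1% and 22.5% of all genes. Without single libraries the day 14 count of higher genes was 13 to 15 and that of lower genes 11 to 14. The day 7 count of higher genes was 5 without day 0 replicate 3, and the day 21 count of lower genes was 8 without day 21 replicate 2. The day 21 count of higher genes was 14 without day 21 replicate 1, 13 without day 21 replicate 3 and 20 when the mitochondrial share was added to the fit. At day 7 that fit removed the calls of all 6 lower genes (Tie1, Tek, Ramp2, Gata2, Efnb2 and Ackr4). Of the 9 higher genes, Nrp2, Piezo1, Fxyd6 and Lrp8 also lost theirs. The day 7 count over all genes went from 2818 to 1269 in the same fit, so the day 7 shares above depend on this choice.

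**Figure D4:**
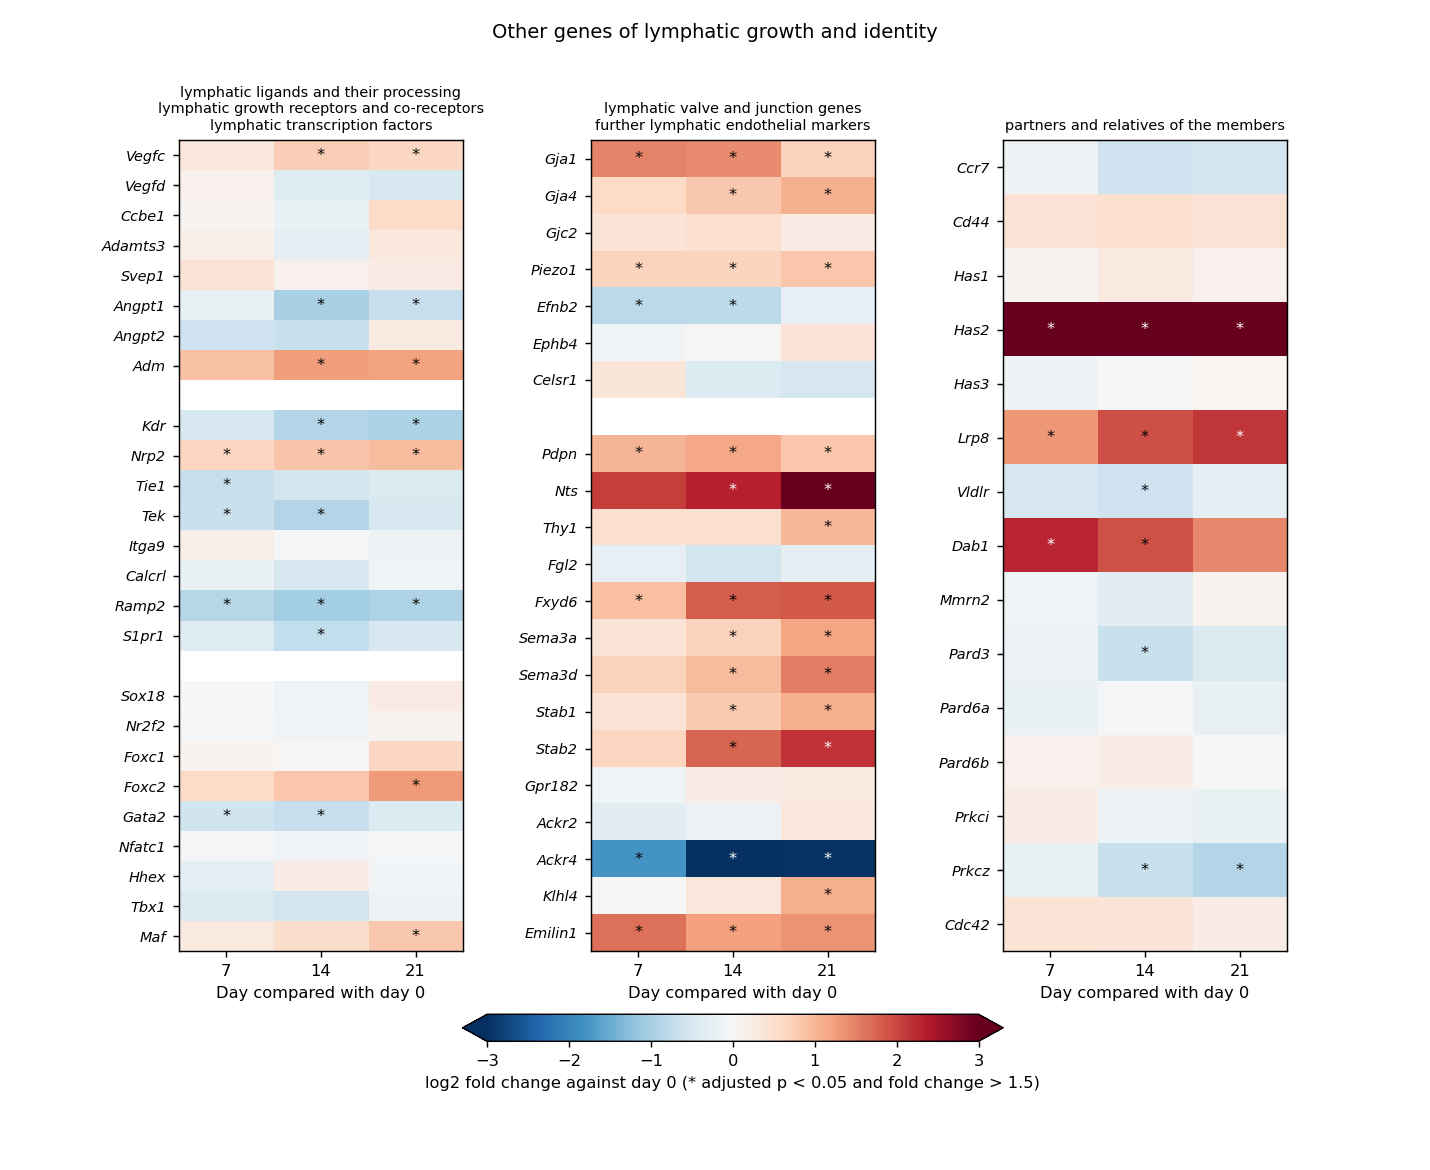
Log2 fold change against day 0 (colour, cut at -3 and 3) of the 61 tested genes of 6 lists on days 7, 14 and 21, with a star where both thresholds were passed. Further lymphatic endothelial markers hold more stars than any other list, with 10 of 14 higher at day 21, and the growth receptors hold more falls than rises.

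Among the further lymphatic endothelial markers, 3 of 14 were higher and 1 lower at day 7, 8 and 1 at day 14, and 10 and 1 at day 21. Their median log2 fold change was 0.46, 0.75 and 1.09. Stab2, a scavenger receptor that binds hyaluronan, rose from 1.81 ± 0.44 CPM at day 0 to 8.18 ± 1.09 CPM at day 21 (log2 fold change 2.17 ± 0.26, edgeR adjusted p 3.59e-05), and its relative Stab1 by 1.08. The guidance ligands Sema3a and Sema3d rose by 1.18 and 1.54 at day 21. Also at day 21, Fxyd6, a regulator of the sodium pump, rose by 1.83 on the log2 scale and Emilin1, an elastic fibre protein, by 1.36. Klhl4 rose by 1.10, a call lost without day 21 replicate 1, and the membrane glycoprotein Pdpn, which alveolar type 1 cells also make, by 0.82. Emilin1 and Pdpn were already called at day 7, at 1.66 and 1.01, and so was Fxyd6, at 0.90, a call lost in 10 of 19 alternatives. Thy1, which fibroblasts and T cells also carry, rose by 0.99 at day 21 but lost its call in 6 of 17 alternatives. Nts, the peptide neurotensin, was between 0.51 and 9.46 CPM in the 3 day 21 libraries, and its call was lost without day 21 replicate 1, while its day 14 call was lost in 11 of 19 alternatives. The 1 gene that fell was Ackr4, a scavenger of Ccl21 and related chemokines, from 7.14 ± 2.03 CPM at day 0 to 2.06 ± 1.51, 0.80 ± 0.48 and 0.91 ± 0.35 CPM, and its day 7 call was lost in 4 of 19 alternatives, among them the omission of day 7 replicate 2. Its log2 fold change at day 21 was -2.96 ± 0.56 (edgeR adjusted p 0.00158).

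Of the 8 ligands and their processing genes, none was called at day 7. Vegfc, the main ligand of Flt4, was higher at days 14 and 21, by log2 fold changes of 0.75 and 0.62 (edgeR adjusted p 0.00194 and 0.0114), and the day 21 call was lost without day 0 replicate 3 or day 21 replicate 3. It went from 22.4 ± 2.88 CPM at day 0 to 37.7 ± 9.05 and 34.4 ± 3.15 CPM. Adm, the peptide adrenomedullin, was higher by 1.26 and 1.20 and lost those calls in 7 of 19 and 12 of 17 alternatives. Angpt1, a ligand of Tek, fell by 0.98 and 0.70 on the log2 scale. Vegfd had log2 fold changes of 0.14, -0.36 and -0.48 over the 3 days, with no call, and neither Ccbe1, Adamts3 nor Svep1, which serve the activation of VEGF-C or lymphatic sprouting, was called.

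Of the 8 growth receptors and co-receptors, Nrp2, which assists Flt4, was the 1 gene that rose, by 0.64, 0.86 and 0.95 at days 7, 14 and 21, and its day 7 call was lost in 4 of 19 alternatives, among them the omission of day 0 replicate 3. Ramp2, a subunit of the adrenomedullin receptor, fell by 0.85, 1.03 and 0.93. Kdr fell by 0.87 at day 14 and 0.96 at day 21, from 383.7 ± 43.5 CPM at day 0 to 197.4 ± 49.3 CPM at day 21, and its day 21 call was lost without day 21 replicate 1. Tek fell by 0.67 and 0.89 at days 7 and 14, Tie1 by 0.69 at day 7 and S1pr1, a receptor for sphingosine phosphate, by 0.74 at day 14. When the mitochondrial share was added, the day 7 calls of Ramp2, Tek and Tie1 were lost, and the Tie1 value was as small as -0.37 in 1 of its alternatives. Among libraries of over 3.5% mitochondrial counts the day 14 call of Kdr was lost. These receptors are shared with blood vessels.

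Of the 9 transcription factors, Foxc2, which patterns lymphatic valves, and Maf were higher at day 21, by 1.28 and 0.81. The Maf call was lost without day 21 replicate 1 or replicate 3. Foxc2 was at 0.79 ± 0.37 CPM at day 0 and 1.95 ± 0.67 CPM at day 21, and its call was lost in 9 of 17 alternatives. Gata2 was lower at days 7 and 14, by log2 fold changes of -0.59 and -0.68, the former lost in 10 of 19 alternatives and the latter in 3, among them the omission of day 0 replicate 4 or day 14 replicate 1. Sox18 and Nr2f2, which act with Prox1 when lymphatics form, had log2 fold changes between -0.11 and 0.24 over the 3 days, with no call.

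Of 7 tested valve and junction genes, the connexins Gja1 and Gja4 and the mechanosensitive channel Piezo1 were higher at days 14 and 21. At day 7 Gja1 and Piezo1 were called, with log2 fold changes of 1.48 and 0.66. The Piezo1 call was lost in 5 of 19 alternatives, among them the omission of day 0 replicate 3 or day 7 replicate 2, and its day 14 call also without day 0 replicate 3. At day 21 the log2 fold changes were 0.70, 1.06 and 0.82, and the Gja1 call was lost in 8 of 17 alternatives. The Gja4 call at day 14 (0.81) was lost in 10 of 19, and that at day 21 without day 21 replicate 3. Efnb2, an ephrin of arteries and valves, fell by 0.82 and 0.77 at days 7 and 14, and the day 7 call was lost in 3 of 19 alternatives, with a value as small as -0.54. Cldn11, at 0 to 9 counts per library, was not tested.

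Among 15 tested partners and relatives of the 7 genes, Has2, which makes the hyaluronan that Lyve1 binds, rose at all 3 days. It was at 0.31 ± 0.30 CPM at day 0 (0 counts in 1 library) and 4.44 ± 2.01, 10.1 ± 6.09 and 8.01 ± 3.21 CPM on days 7, 14 and 21. The reelin receptor Lrp8 rose by log2 fold changes of 1.30, 1.94 and 2.15, the first lost in 9 of 19 alternatives and the second among libraries of over 3.5% mitochondrial counts. Vldlr, the other receptor, fell by 0.61 at day 14, a call lost in 5 of 19 alternatives, among them the omission of day 0 replicate 1, day 14 replicate 3 or day 14 replicate 4. Dab1, the adaptor behind both receptors, rose by 2.28 and 1.90 at days 7 and 14 from 0.24 ± 0.16 CPM at day 0. The day 14 call of Dab1 was lost in 5 of 17 alternatives, among them the omission of day 0 replicate 1, day 0 replicate 2 or day 14 replicate 4. Of the polarity genes that work with Pard6g, Pard3 fell by 0.66 at day 14 and the kinase Prkcz by 0.67 and 0.88 at days 14 and 21, the former lost in 2 of 19 alternatives, with a value as small as -0.43. Ccr7, the receptor of Ccl21a, had mean levels of 19.96, 18.02, 13.03 and 13.32 CPM on days 0, 7, 14 and 21, with no call.

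The genes whose profile was most like that of the 7 together were Golga2, Fam124a, Zcchc24, Gab2 and Abcg2. Likeness was Pearson's r over the 15 libraries between log2 CPM and the mean of the standardised members, which included day differences, and it was 0.92, 0.92, 0.92, 0.92 and 0.91 among 15338 candidates. That mean followed Flt4 most (0.98) and Pard6g least (0.23). Of the 5 genes, Fam124a, Gab2 and Abcg2 passed both thresholds at day 21, with log2 fold changes of 1.08, 0.71 and 0.93.

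Markers of other cell types moved over the same days, and their part in the changes above was not tested beyond the values given. All 15 libraries held the epithelial markers of lung. Their summed level over 7 markers was 52900 to 68300 CPM at day 0 and 9810 to 14400 CPM at day 21. The sum of 11 pan-endothelial markers was 4200 to 5050 CPM at day 0, 2970 to 3760 at day 7, 2880 to 4150 at day 14 and 3930 to 5300 at day 21. Egfl7, Erg and Ptprb were lower at day 7 and Pecam1 and Ptprb at day 14, with none higher. At day 21, 1 of the 11, Vwf, was higher, by a log2 fold change of 0.97, and none was lower. Markers of platelets and megakaryocytes, which also make Mmrn1, went from 50.7 to 80.5 CPM at day 0 to 26.4 to 44.3 CPM at day 21 over 8 genes. Of these, 4 were lower at day 7 (Ppbp, Gp9, Treml1 and Clec1b), 6 at day 14 (Ppbp, Itga2b, Gp1ba, Gp9, Gp6 and Clec1b) and 1 at day 21 (Ppbp), with none higher. Markers of macrophages that carry Lyve1 were dominated by Cbr2, which airway club cells also make. All 8 markers summed to 4350 to 6430 CPM at day 0, 2120 to 2470 on day 7, 990 to 1820 on day 14 and 1020 to 1840 on day 21. Without Cbr2, a choice made after its values were seen, the other 7 summed to 538 to 563 CPM at day 0, 660 to 1030 at day 7, 631 to 1490 at day 14 and 849 to 1310 at day 21. Cbr2 was lower on all 3 days. Mrc1 was higher and Timd4 lower at days 14 and 21, and Cd163 and Pf4 were higher at day 21.

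Lymph node or thymus in the sample would also bring lymphatic genes. The 6 B cell markers summed to 105 to 173 CPM at day 0 and 34.9 to 52.2 CPM at day 21, and 5 were lower at both day 14 and day 21. The 6 T cell markers went from 29.0 to 48.9 CPM to 12.9 to 37.6 CPM with Cd8a and Lck lower at day 14 and no call at day 21. The 6 markers of lymphoid stroma held 20.9 to 38.9 CPM at day 0 and 21.0 to 53.6 CPM at day 21, with Cr2 and Fcer2a lower and none higher. Cxcl13, Il7 and Tnfsf11 had higher means at day 21, without a call (22.9 ± 16.2, 5.45 ± 0.33 and 1.21 ± 1.13 CPM). At day 0 they were at 6.72 ± 7.67, 3.76 ± 1.12 and 0.52 ± 0.12 CPM. Madcam1, at 0 to 5 counts per library, was not tested. The median log2 fold change of the 5 tested genes was 0.54 at day 21. Thymocyte and thymic epithelium markers summed to 7.85 CPM at most over 8 genes, and Rag1, Rag2 and Ptcra were at 0 in all day 21 libraries. These 3 were at 0 in 8, 14 and 10 of all 15 libraries, so their zeros say little about day 21. Foxn1, at 0 to 6 counts per library, had means of 0.03 CPM at day 0 and 0.16 CPM at day 21. Cardiac muscle markers were at 18.8 to 193.4 CPM in 12 libraries, and at 283.8 in day 0 replicate 3, 645.5 in day 7 replicate 4 and 757.9 CPM in day 21 replicate 1. The 5 mesothelial markers summed to 219 to 368 CPM at day 0 and 448 to 724 CPM at day 21, where Msln was higher.

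**Figure D5:**
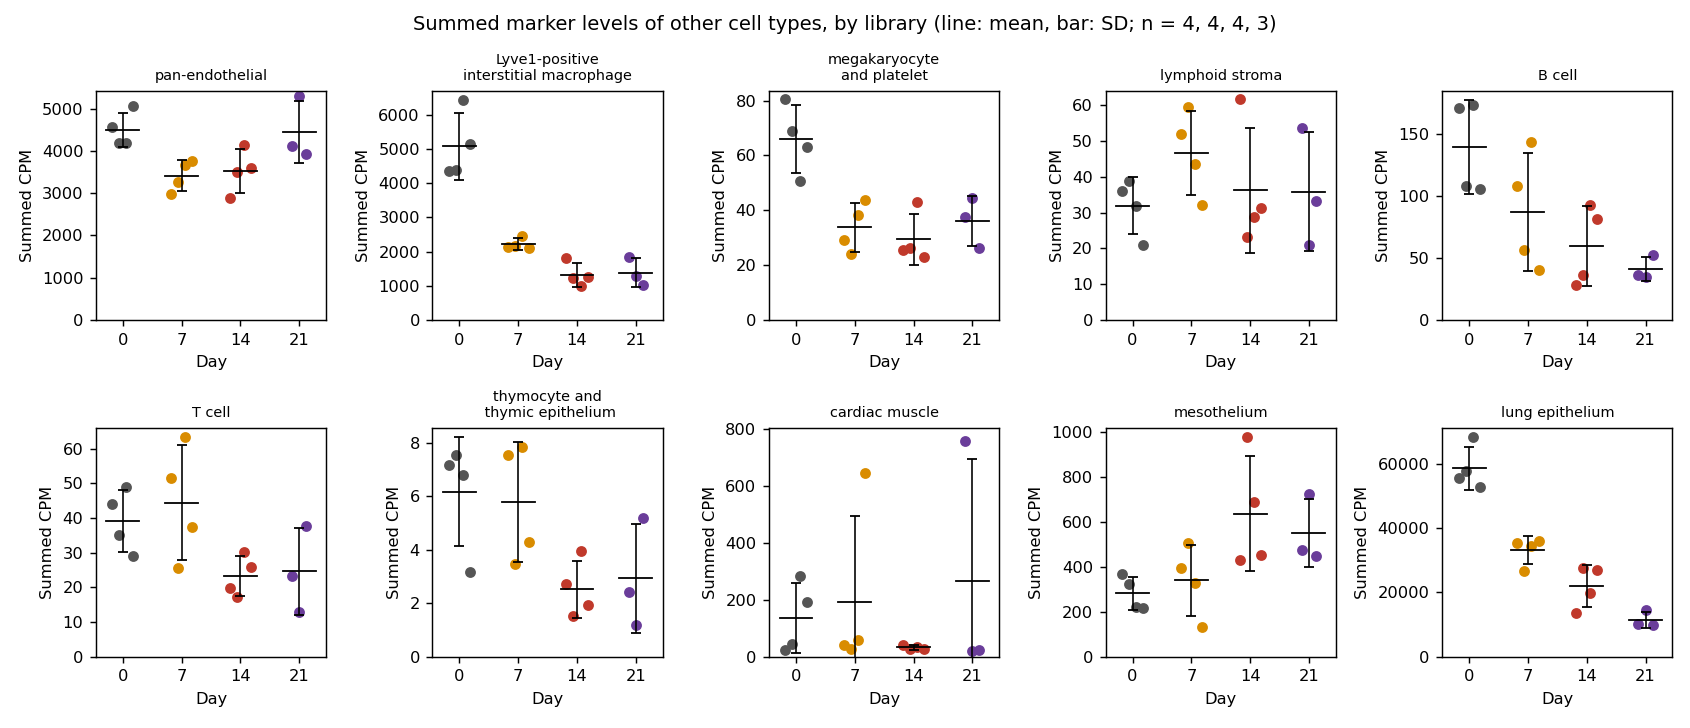
Summed CPM of 10 lists of markers of other cell types in each library (points) by day, with the mean (line) and SD (bar). B cell, epithelial, platelet and Lyve1-positive macrophage sums are lower at day 21 than at day 0, the last with Cbr2 included, while the pan-endothelial sum of 3930 to 5300 CPM at day 21 overlaps that of day 0.

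Libraries held 15652008 to 18020661 counts, and the share from 16 mitochondrial genes ran from 2.03% to 2.15% at day 7 and from 2.102% to 4.22% over the other days. It was 2.28% and 2.31% in day 0 replicates 1 and 2 but 4.22% and 4.05% in replicates 3 and 4. At day 14 it was 2.102% in replicate 1 and 3.791%, 4.136% and 3.735% in the others. The 5 calls at day 21 held when this share was added to the fit, with log2 fold changes of 1.92 for Prox1, 1.05 for Flt4, 1.10 for Ccl21a, 1.79 for Mmrn1 and 2.24 for Reln. Day 21 had too few libraries of low or of high share for a comparison within them.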

How the data were processed

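The authors trimmed reads with TrimGalore, aligned them to mm10 with HISAT2 2.1.0, dropped multi-mapped reads and counted the rest per Ensembl gene with HTSeq 0.6.0. The deposited values are these raw counts, with no normalization. The annotation release and strand setting are not given in the sources used here, and the library kit does not mark strand, so overlapping genes carry that uncertainty. Symbols came from GENCODE M21, which matched 33267 of 33340 genes, and promoter windows from RefSeq.

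All 15 libraries entered 1 edgeR 4.0.16 fit (R 4.3.3; filterByExpr, TMM, glmQLFit, glmQLFTest) with the day group as the only term, tested on simulated data. The biological coefficient of variation was 22.8%. Total counts were 15652008 to 18020661 per library. CPM used TMM-scaled library sizes, and log2 ratios a prior count of 2. The paper calls the mouse RNA-seq samples biological replicates. Nothing in the labels says that libraries came from separate mice, so p-values measure the spread between these samples. The members and lists were chosen with earlier results of these data known. The genes named were the 7 members, genes of the pathway lists that changed against day 0, and the 5 genes most like the members. Other list genes named, with values and no call, were chosen after their values were seen. Alternatives used other scaling, filters and tools (limma 3.58.1, DESeq2 1.42.0), 2 groups alone, the replicate number as a block, glmTreat, no fold threshold, the mitochondrial share, and the omission of each library. Ratios were tested with SciPy 1.17.1.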

Additional observations from a re-analysis of the deposited data

Results flagged for a closer look

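In 30 groups of 4 libraries, over the 7 genes and 3 ratios, 4 held a library far from the others by Dixon's test, where chance gives about 5%. Day 7 replicate 2 had 19.81 CPM of Reln, where the other 3 libraries of that day ran from 14.12 to 14.86 CPM. Reln stood apart again in day 14 replicate 1, with 32.97 CPM beside 21.17 to 23.06 CPM. Day 0 replicate 1 had 41.62 CPM of Pard6g beside 36.76 to 37.13 CPM. The log2 ratio of Prox1 over Pecam1 was -7.719 in day 0 replicate 1, against -7.266 to -7.176.

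Levels differed between days after bleomycin for 5 of the 7 genes, by edgeR's test of one day against the other (adjusted over all genes). Day 14 was above day 7 by 1.046 on the log2 scale for Prox1 and by 0.8764 for Ccl21a, where 6.0% of all genes changed. Day 21 was above day 7, where 9.54% of all genes changed, by 1.767 for Prox1, 1.348 for Flt4, 1.399 for Ccl21a, 1.588 for Mmrn1 and 1.98 for Reln. Between days 14 and 21 none of the 7 genes passed in edgeR.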

How the results depend on the processing

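The 5 genes called at day 21 against day 0, and the same 5 against day 7, were called in every one of 17 alternative fits. At day 7 the count of called genes was 0, and it was 1 with the replicate number as a block (Lyve1, log2 fold change -0.62), 1 with the 2 groups alone (Lyve1), 1 among libraries under a mitochondrial share of 2.5% (Lyve1) and 1 with no fold threshold (Pard6g). At day 14 it was 3, 1 under glmTreat (Prox1) and 2 to 4 without single libraries. From day 7 to day 14 it was 2, 1 with the mitochondrial share as a covariate or the 2 groups alone, 0 under glmTreat and 1 to 2 without single libraries. From day 14 to day 21 it was 0, 3 with no filter on low counts, 4 under DESeq2 and 0 to 3 without single libraries. Direction reversed for Mmrn1 at day 7 without day 0 replicate 3 (-0.010) and among libraries of low share (-0.063), for Lyve1 at day 21 with the covariate (0.0080) and without day 21 replicate 3 (0.22, in a range of -0.62 to 0.22 over single omissions, the lowest without day 21 replicate 2), and for Lyve1 from day 14 to day 21 without day 21 replicate 2 (-0.30, in a range of -0.30 to 0.53 over single omissions). None of these was called, and the causes were not tested. Under glmTreat, which tests against a fold change of 1.5 itself, the pathway lists held 4, 7 and 10 higher genes and 0, 3 and 1 lower genes at days 7, 14 and 21. All-gene counts at day 7 were 2818, 703 under glmTreat and 1269 with the covariate. From day 7 to day 14 they were 1048, and 1634, 218 and 14 under DESeq2, the covariate and glmTreat. Under glmTreat the all-gene counts at days 14 and 21 were 1755 and 1754, beside 4040 and 3924. From day 7 to day 21 they were 1665, 942 with the covariate and 176 under glmTreat, and from day 14 to day 21 they were 0, and 101 under DESeq2. The pathway-list counts and the marker sum without Cbr2 were chosen after seeing the data. Replicate numbers are not stated to pair the samples. Correlations of same-numbered deviations ran from -0.244 to 0.397, and with 3 or 4 libraries a day these cannot settle whether samples were paired. With the replicate number as a block in edgeR, Lyve1 at day 7 gained a call. Ccl21a at day 14 (adjusted p 0.0507) and Adm and Foxc2 at day 21 lost theirs. With 63 to 367 counts, Prox1 had the least depth of the 7 genes.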

Other observations

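Within days, some of the genes varied together from library to library. Over the 15 libraries, with day means removed, Pearson's r of log2 CPM was 0.89 between Mmrn1 and Reln, 0.74 between Flt4 and Reln and 0.58 between Flt4 and Mmrn1. Ccl21a went the other way, at -0.57 with Mmrn1 and -0.55 with Reln, and Lyve1 with Prox1 was at -0.61. With day differences kept, Mmrn1 with Reln was at 0.97, Ccl21a with Reln at 0.67 and Lyve1 with Prox1 at -0.10. These values describe libraries that share depth and day groups of 3 or 4.

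For single genes, the most similar profiles over the 15 libraries were those of Myo7a for Prox1 (r of 0.94), Rin2 for Lyve1 (0.86), Gm15609 for Flt4 (0.93), Gm10591 for Ccl21a (0.93), Zfp46 for both Mmrn1 (0.95) and Reln (0.96), and Cabin1 for Pard6g (0.95). Gm10591 is the close copy of Ccl21a described above.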
